A study of Mus musculus with 2 samples.

Results

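Renal calcium and magnesium handling was followed here through 10 genes, which were picked by symbol from the 32285 genes of the deposited feature lists: Trpm6, Trpm7 and Trpv5 (entry channels), Calb1 and S100g (calcium buffers), Slc8a1, Atp2b1 and Cnnm2 (basolateral transport), Casr (a sensor) and Egf (a hormone precursor). All 10 were present in both libraries. The libraries are single-cell 3′ RNA-seq of mouse kidney collected on day 14 after unilateral ischemia-reperfusion injury, with 1 library per genotype. The first came from 1 Cre- mouse. The second came from 1 littermate that carried Cdh5-CreERT2 together with the alleles Phd1f/f, Phd2f/f and also Phd3f/f (called PHDTiEC), in which a tamoxifen-inducible Cre under the endothelial Cdh5 promoter recombines 3 floxed HIF prolyl hydroxylase genes. In the study, mice were 8 to 10 weeks old at surgery, and the renal pedicle of males was clamped for 25 minutes. Mice of both genotypes were given 4 doses of 3 mg tamoxifen. Tamoxifen was started on day 1 after the injury, so recombination followed it.

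Calcium and magnesium that escape the proximal tubule and the thick ascending limb are recovered in the distal nephron. In the distal convoluted tubule (DCT), magnesium enters through TRPM6 channels. In the connecting tubule (CNT) calcium enters through TRPV5, is carried across the cell by the vitamin D-dependent buffers calbindin-D28K (Calb1) and calbindin-D9K (S100g), and leaves through the sodium-calcium exchanger NCX1 (Slc8a1) and the calcium pump PMCA1 (Atp2b1). CASR senses blood calcium in the thick ascending limb (TAL), and EGF, made in the TAL and DCT, stimulates magnesium uptake by TRPM6.

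With 1 library per genotype no test between genotypes is possible. Each level is given as CPM, the gene's UMIs (unique transcript counts) scaled to the UMI total of the cell class, each difference as a log2 ratio of CPM, PHDTiEC over Cre-, and every interval is a 95% interval that covers counting error only. A gene is said to be past 1.5-fold only where it had at least 100 UMIs over both libraries. After filtering, 8548 cells of Cre- and 9309 of PHDTiEC were kept, with a median of 7500 and 7898 UMIs, and 28 barcodes occurred in both. Of these, 2489 and 2650 lay in 8 clusters of nephron cells, which carried their segment's markers: Slc34a1 in proximal tubule (PT)-like, Umod and Slc12a1 in TAL-like, Slc12a3 in DCT-like, Aqp2 and Scnn1b in collecting duct (CD)-like and Atp6v1g3 in intercalated (IC)-like cells. Pvalb, a marker of the early DCT, was nearly absent from the DCT-like cells (1.01 and 5.09 CPM). Counts of the floxed genes did not show their loss. In endothelial-like cells Egln1 (PHD2) was at 67.0 CPM in Cre- and 202 in PHDTiEC, Egln3 (PHD3) at 26.4 and 160.4, and Egln2 (PHD1) at 43.1 and 39.3. Reads from the 3′ end may lie outside the deleted exons, so these counts do not check the deletion, and the second library is named by its label. In uninjured PHDTiEC mice the paper reports, from immunostaining, that PHD1, PHD2 and PHD3 were lost from kidney endothelium.

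The CNT was not a cluster of its own. When the DCT-like, CD-like and IC-like clusters were clustered again, with the 10 genes and their pathway genes left out, 1 of the 15 subclusters was named CNT-like from its list of markers as a whole. Scnn1b was at 412 and 355 CPM there, against 391 and 316 in the next subcluster. Klk1, at 5543 and 4880.3 CPM, singled these cells out in Cre- but not in PHDTiEC, where DCT-like subcluster 2 had 7889 CPM. The CNT-like subcluster held 155 cells of Cre- and 221 of PHDTiEC, most of them from the CD-like cluster, with Aqp2 at 294 and 261 CPM. Against the other distal cells its CNT markers had a mean log2 ratio of 0.93 and its CD principal cell markers 0.88. These 2 lists share genes, so the name rests on a narrow lead.

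**Figure D1:**
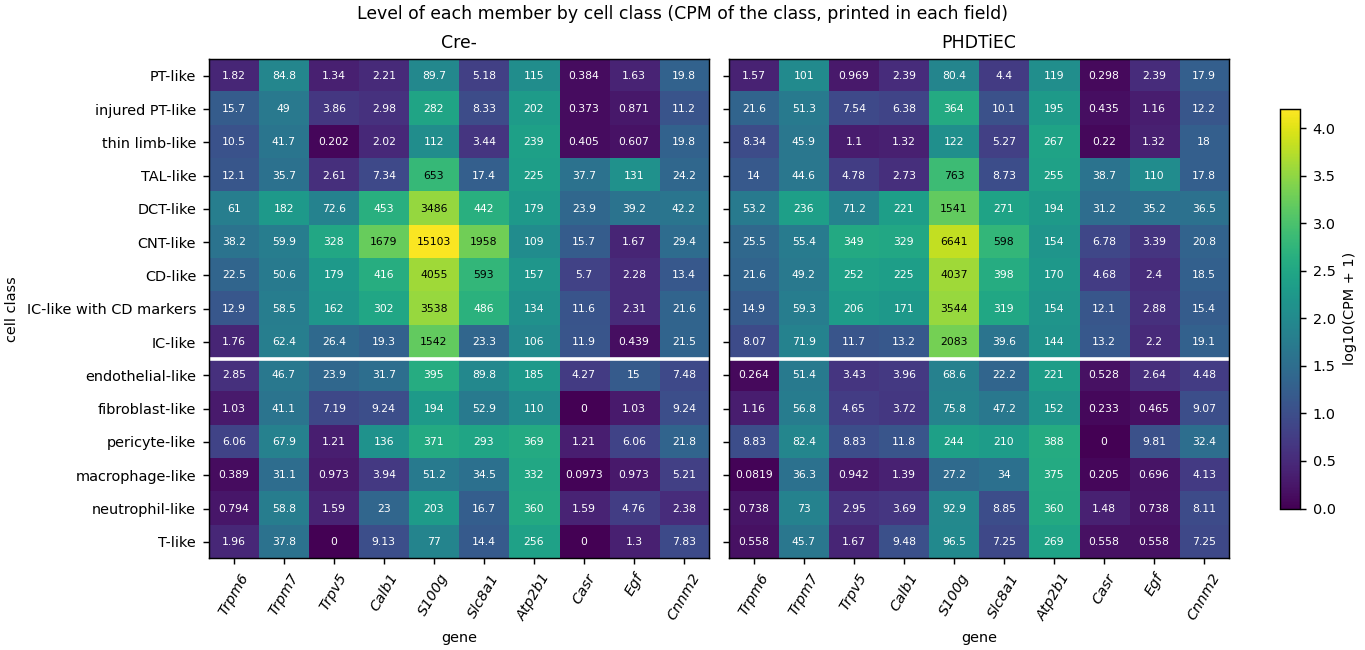
Level of the 10 genes (columns) in 15 cell classes (rows) of the Cre- library (left) and the PHDTiEC library (right), as CPM printed in each field and coloured on a log10(CPM + 1) scale. Rows above the white line are nephron cells, and the CNT-like cells are also part of the DCT-like, CD-like and mixed IC-like rows; Calb1, S100g and Slc8a1 are brightest in CNT-like cells, Egf in TAL-like cells.

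Among the entry channels, Trpm6 was most abundant in DCT-like cells, at 61.0 CPM (484 UMIs) in Cre- and 53.2 (471 UMIs) in PHDTiEC, a log2 ratio of -0.20 (-0.38 to -0.01). CNT-like cells followed with 38.2 and 25.5 CPM, and CD-like cells with 22.5 and 21.6. In the CNT-like cells the log2 ratio was -0.58 (-0.97 to -0.19), just inside 1.5-fold, and -0.19 among cells with at most 20% mitochondrial UMIs. PT-like cells held 1.82 and 1.57 CPM, and injured PT-like cells, marked by Havcr1, held 15.7 and 21.6. A UMI of Trpm6 was found in 59.1% and 56.7% of DCT-like cells, against 0.31% and 0.08% of macrophage-like cells, which should lack it. With every cell thinned to 2000 UMIs the DCT-like share was 8.30% and 8.28%.

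Trpm7, the broadly expressed relative of Trpm6, was found in every nephron class. It was highest in DCT-like cells, at 182 and 236 CPM, followed by PT-like cells at 84.8 and 101. PHDTiEC was the higher library in DCT-like cells (log2 ratio 0.38, 0.28 to 0.48), TAL-like cells (0.32, 0.14 to 0.50) and PT-like cells (0.26, 0.13 to 0.38). None of these reached 1.5-fold.

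Trpv5, the apical calcium channel, had its highest level in CNT-like cells and was close to equal in the libraries there. It stood at 328 CPM (981 UMIs) in Cre- and 349 (1544 UMIs) in PHDTiEC, a log2 ratio of 0.09 (-0.03 to 0.20). The median CNT-like cell held 252 and 309 CPM, and the 90th percentile was 571 and 567. In the whole CD-like cluster it was 179 and 252 CPM (log2 ratio 0.49, 0.39 to 0.60), and DCT-like cells had 72.6 and 71.2. A UMI was found in 83.2% and 88.2% of CNT-like cells and in 0.84% and 0.87% of macrophage-like cells. In TAL-like cells Trpv5 was at 2.61 and 4.78 CPM, with 31 and 63 UMIs, too few for a comparison.

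Downstream of that channel the picture was different. Both calcium buffers and the sodium-calcium exchanger were lower in the CNT-like cells of the PHDTiEC library, while the channel was not. Calb1 stood at 1679 CPM (1633 to 1726, 5018 UMIs) in Cre- and 329 (312 to 346, 1456 UMIs) in PHDTiEC, 5.10-fold lower (log2 ratio -2.35, -2.44 to -2.27). S100g stood at 15103 and 6641 CPM (log2 ratio -1.19, -1.21 to -1.16), and Slc8a1 at 1958 and 598 CPM (-1.71, -1.78 to -1.65). Of the 8 members with at least 100 UMIs in CNT-like cells, these 3 were past 1.5-fold, all lower. Of all 7729 genes with that depth in these cells, 8.86% were past 1.5-fold, and the median log2 ratio of all genes was 0.14.

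**Figure D2:**
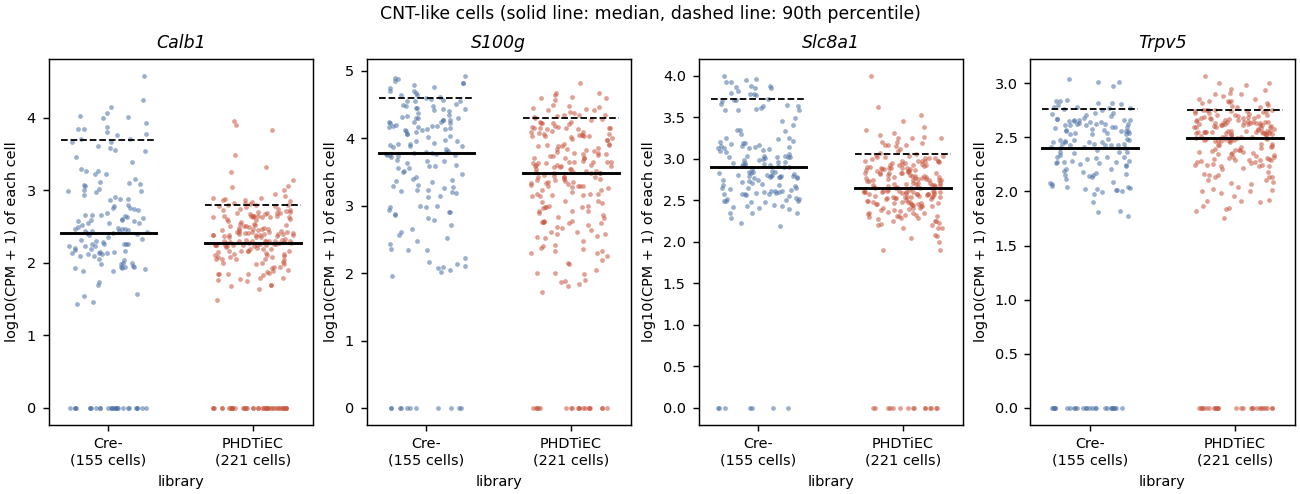
Each point is 1 CNT-like cell of the Cre- (155 cells, blue) or PHDTiEC (221 cells, red) library, with its Calb1, S100g, Slc8a1 or Trpv5 level as log10(CPM + 1); the solid line is the median and the dashed line the 90th percentile. The Calb1 clouds overlap around their medians (256 and 187 CPM) and part at the 90th percentile (4903 and 629 CPM), whereas both lines of Trpv5 lie close together.

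For Calb1 and Slc8a1 the libraries stood farther apart among the cells with the highest levels than at the median. The median CNT-like cell held 256 CPM of Calb1 in Cre- and 187 in PHDTiEC, while the 90th percentile was 4903 and 629. For Slc8a1 the medians were 798 and 444 CPM and the 90th percentiles 5172 and 1141. For S100g the gap was alike at both, since the medians were 6055 and 3033 CPM and the 90th percentiles 39356 and 20276. The libraries overlapped over most of the range of each gene. The 5 Cre- cells with the most UMIs of Calb1 carried 35.0% of its UMIs in that library, and the 5 PHDTiEC cells 27.9%. Across the 155 Cre- cells, Calb1 went with S100g (Pearson's r 0.54 of log2(CPM + 1)), with Slc8a1 (0.42) and with Kl (0.57), and less with Trpv5 (0.27). These r values describe cells of 1 library, which share its depth and free RNA. In the 221 PHDTiEC cells they were 0.32, 0.25, 0.35 and 0.38.

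Cells rich in mitochondrial transcripts held much of these UMIs, and the libraries differed in the number of such cells. In Cre-, 28 of 155 CNT-like cells had over 20% mitochondrial UMIs (18.1%), and in PHDTiEC 8 of 221 (3.62%). The 28 cells held 54.8% of the Calb1, 39.8% of the S100g and 46.0% of the Slc8a1 UMIs of the Cre- CNT-like cells, whereas the 8 cells held 12.3%, 2.84% and 6.01%. Within the cells at or below 20%, Calb1 was still lower in PHDTiEC, at 905 and 292 CPM (log2 ratio -1.63, -1.73 to -1.53), as were S100g, at 10839 and 6520 CPM (-0.73), and Slc8a1, at 1260 and 568 CPM (-1.15). Within the cells above 20%, Calb1 was at 5718 and 3939 CPM (-0.54, -0.76 to -0.32), inside 1.5-fold, while S100g (-1.02) and Slc8a1 (-0.68) were past it. Slc12a3, the sodium-chloride cotransporter of the DCT, also differed among CNT-like cells, at 280 and 50.2 CPM. Whether mitochondrial share or the mix of late DCT and CNT cells accounts for the difference was not tested.

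**Figure D3:**
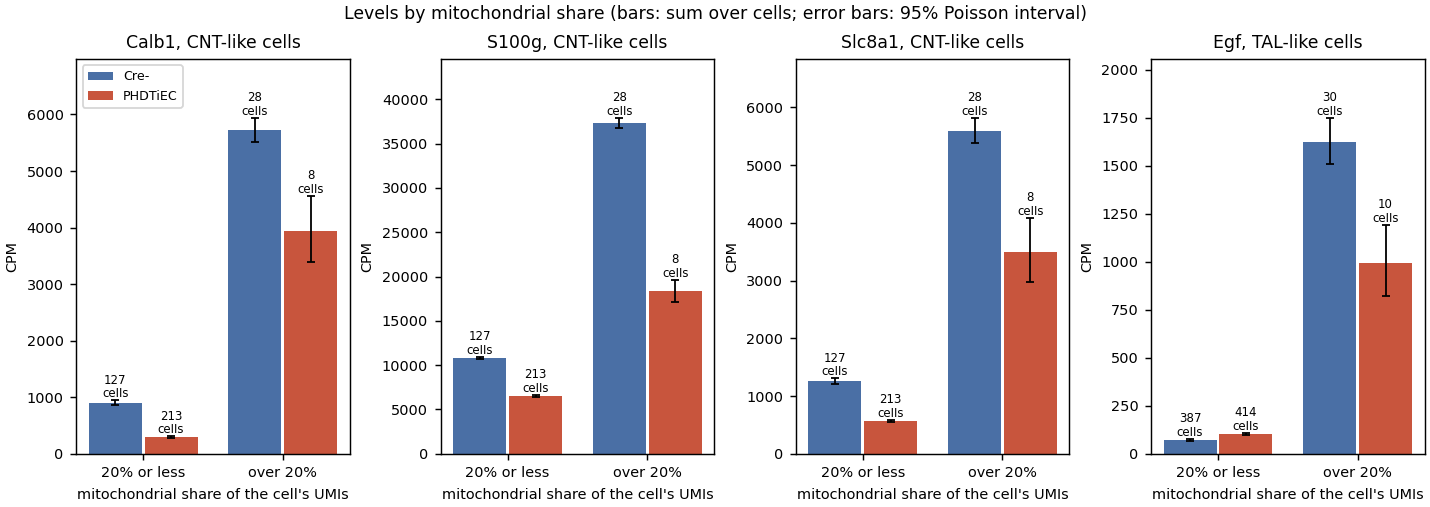
Summed levels (CPM, bars; 95% Poisson interval, error bars) of Calb1, S100g and Slc8a1 in CNT-like cells and of Egf in TAL-like cells, split by whether at most or over 20% of a cell's UMIs were mitochondrial, in the Cre- (blue) and PHDTiEC (red) libraries, with the number of cells above each bar. All 4 genes are several-fold higher in the cells over 20%, of which Cre- holds more, and Egf is the one gene of the 4 whose cells at or below 20% have more in PHDTiEC.

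S100g and Slc8a1 were lower in the CNT-like cells of PHDTiEC, while Trpv5 was not. Calb1, also lower there, had no window in the RefSeq set used. The start regions of S100g, Slc8a1 and Trpv5, 3 genes of the CNT calcium route, are shown. Each is 250 bases before to 50 after the annotated start in RefSeq, build GRCm38.p6, on the minus strand (S100g at chrX:162964550-162964849, Slc8a1 at chr17:81738338-81738637, Trpv5 at chr6:41680674-41680973). Capitals mark matches, on either strand, of TATAAA, of the nuclear receptor half-site AGGTCA, or of the hypoxia response core written as ACGTG or GCGTG.
S100g: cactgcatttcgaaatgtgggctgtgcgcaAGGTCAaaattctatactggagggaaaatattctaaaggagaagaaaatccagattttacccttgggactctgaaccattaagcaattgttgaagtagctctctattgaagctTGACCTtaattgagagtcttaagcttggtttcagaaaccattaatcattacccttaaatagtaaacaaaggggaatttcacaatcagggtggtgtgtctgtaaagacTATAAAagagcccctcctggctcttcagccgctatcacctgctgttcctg
Slc8a1: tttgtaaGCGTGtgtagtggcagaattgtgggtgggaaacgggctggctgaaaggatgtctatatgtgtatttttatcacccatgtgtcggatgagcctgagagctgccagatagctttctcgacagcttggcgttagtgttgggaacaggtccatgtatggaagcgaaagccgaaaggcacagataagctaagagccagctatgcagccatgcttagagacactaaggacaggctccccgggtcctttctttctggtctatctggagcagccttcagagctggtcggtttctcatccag
Trpv5: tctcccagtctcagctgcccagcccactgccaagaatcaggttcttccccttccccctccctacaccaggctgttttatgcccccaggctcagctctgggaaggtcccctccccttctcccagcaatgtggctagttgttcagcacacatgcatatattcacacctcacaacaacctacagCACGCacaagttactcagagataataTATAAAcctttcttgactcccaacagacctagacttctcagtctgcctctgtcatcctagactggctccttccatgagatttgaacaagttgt
S100g held TATAAA once and AGGTCA on each strand, Trpv5 held TATAAA and GCGTG once each, and Slc8a1 held GCGTG once. The TATAAA of S100g began on the annotated start itself, and that of Trpv5 at position -43 from it. Whether any match bears on the levels was not tested. Of all 32851 windows of this length, 13.6% held TATAAA, 16.3% AGGTCA, 19.6% ACGTG and 32.4% GCGTG. In the GENCODE vM21 annotation of GRCm38 the genes lie at chromosome X, 162961992 to 162964599 (S100g), chromosome 17, 81373105 to 81738377 (Slc8a1), chromosome 6, 41652173 to 41680769 (Trpv5), and chromosome 4, 15881264 to 15908064 (Calb1).

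The same 3 genes set the DCT-like cluster apart. Calb1 was at 453 CPM in Cre- and 221 in PHDTiEC (log2 ratio -1.03, -1.11 to -0.95), S100g at 3486 and 1541 (-1.18, -1.21 to -1.15) and Slc8a1 at 442 and 271 (-0.71, -0.78 to -0.63). These were the 3 of 10 members past 1.5-fold, against 6.17% of all 9891 genes tested. All 3 differences narrowed to inside 1.5-fold once the cells of the CNT-like subcluster were taken out, 17 from Cre- and 9 from PHDTiEC: Calb1 was then at 231 and 202 CPM (-0.19), Slc8a1 at 266 and 254 (-0.07) and S100g at 2082 and 1443 (-0.53). At most 20% mitochondrial UMIs had a like effect, with log2 ratios of -0.37 for Calb1, -0.11 for Slc8a1 and -0.59 for S100g, the last still just past 1.5-fold. The 49 Cre- cells above that share carried 65.5% of the cluster's Calb1, and the 16 PHDTiEC cells 39.4%.

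In the CD-like cluster the pattern was partial. Calb1 was at 416 and 225 CPM (log2 ratio -0.89, -0.97 to -0.80) and was the 1 of 8 members past 1.5-fold, with a background of 5.04% of genes. Slc8a1 was at 593 and 398 CPM (-0.57), and S100g was level at 4055 and 4037 (-0.01, -0.03 to 0.02). Without the CNT-like cells Calb1 was at 197 and 191 CPM (-0.04), while S100g was higher in PHDTiEC, at 726 and 1648 CPM (log2 ratio 1.18), with 5 cells holding 61.4% and 47.4% of those UMIs. Among CD-like cells with at most 20% mitochondrial UMIs Calb1 was at 294 and 205 CPM (-0.52), inside 1.5-fold. Slc8a1 was then at -0.23 and S100g at 0.25. The cluster with both IC and CD markers, the deepest of the nephron clusters (median 47744 UMIs in Cre-), had Calb1 at 302 and 171 CPM (-0.82) and Slc8a1 at 486 and 319 (-0.61), and S100g level at 3538 and 3544. There 2 of 10 members were past 1.5-fold, against 4.28% of genes. Both fell inside 1.5-fold once its CNT-like cells, 10 from Cre- and 7 from PHDTiEC, were taken out. Calb1 was then at 242 and 162 CPM (-0.575) and Slc8a1 at 419 and 315 (-0.41). In this cluster the median cell went the other way for Calb1, at 85.5 and 113 CPM. In IC-like cells Slc8a1, 1 of 4 members, was past 1.5-fold, higher in PHDTiEC with 23.3 and 39.6 CPM from 53 and 54 UMIs (0.77, 0.19 to 1.34), against 5.73% of genes. Its sign turned under 3 of 13 alternatives, and it was lower in PHDTiEC in IC-like subclusters 6 (-1.14) and 10 (-0.62). Free RNA was estimated at 26.4% and 52.3% of the UMIs of IC-like cells and held Slc8a1 at 161 and 106 CPM. How much of the IC-like level it makes up was not tested.

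**Figure D4:**
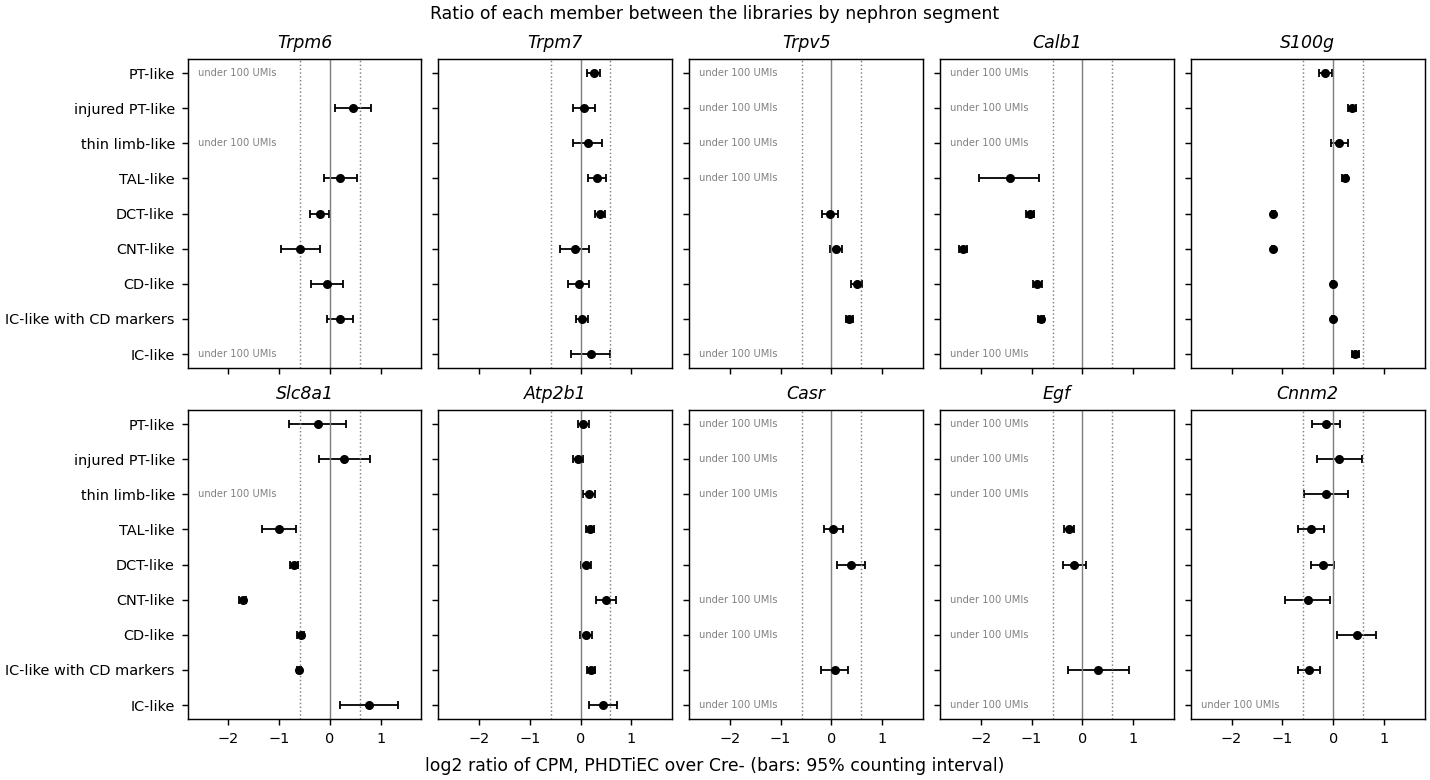
Log2 ratio of CPM, PHDTiEC over Cre-, of each of the 10 genes (panels) in 9 nephron cell groups (rows), with 95% counting intervals; the solid line is no difference, the dotted lines are 1.5-fold, and fields under 100 UMIs hold no point. Calb1 lies left of the dotted line in TAL-like, DCT-like, CNT-like, CD-like and mixed IC-like cells, while Trpm7, Trpv5, Atp2b1, Casr, Egf and Cnnm2 stay between the dotted lines wherever they have a point.

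Outside the distal nephron Calb1 and Slc8a1 were scarce, while S100g was still well detected in TAL-like cells. In TAL-like cells Calb1 (7.34 and 2.73 CPM) and Slc8a1 (17.4 and 8.73 CPM) were the 2 of 9 members past 1.5-fold, against 3.78% of genes. Of the 87 Calb1 UMIs in the Cre- TAL-like cells, 5 cells carried 80.5%, and without the 1 cell of each library with most UMIs the log2 ratio turned from -1.42 to 0.18. S100g was at 653 and 763 CPM there. No member was past 1.5-fold in PT-like (of 5, with 4.4% of genes past it), injured PT-like (of 6, 4.9%) or thin limb-like cells (of 4, 2.45%). S100g was also the member most abundant in the free RNA of barcodes under 100 UMIs, at 1920.4 and 1218 CPM, and Calb1 (159 and 72.6) and Slc8a1 (161 and 106) were likewise lower there in PHDTiEC. The part of free RNA in the cell levels was not tested beyond 1 subtraction, under which the CNT-like ratios of all 3 genes moved by less than their intervals. It took the share of free RNA from neutrophil markers, 0.80% and 1.27% in CNT-like cells, so it could move these ratios only little. The same estimate was 26.4% and 52.3% in IC-like cells. A UMI of S100g was found in 28.7% and 19.3% of macrophage-like cells, at a median of 7135 and 7584 UMIs per cell, and in 92.9% and 91.4% of CNT-like cells, at 13120 and 14540.

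Of the other basolateral members, Atp2b1 and Cnnm2 stayed inside 1.5-fold in every segment, though in CNT-like cells Cnnm2 (lower) passed it under 3 of the alternatives and Atp2b1 (higher) under 2. Atp2b1, the plasma membrane calcium pump, was at 109 CPM in the CNT-like cells of Cre- and 154 in those of PHDTiEC (log2 ratio 0.50, 0.31 to 0.70), and at 179 and 194 in DCT-like cells (0.11). It was not particular to the nephron: macrophage-like cells held 332 and 375 CPM, more than any nephron class. Cnnm2, a basolateral protein needed for magnesium recovery, was highest in DCT-like cells, at 42.2 and 36.5 CPM (-0.21, -0.43 to 0.02). It was lower in PHDTiEC in CNT-like cells (29.4 and 20.8 CPM, -0.50, -0.94 to -0.06), in TAL-like cells (24.2 and 17.8 CPM, -0.44) and in the mixed IC-like cells (21.6 and 15.4, -0.48) and higher in CD-like cells (13.4 and 18.5, 0.46), each inside 1.5-fold.

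The sensor and the hormone precursor marked the TAL. Casr was at 37.7 CPM (447 UMIs) and 38.7 (510 UMIs) in TAL-like cells (log2 ratio 0.04, -0.15 to 0.22) and at 23.9 and 31.2 in DCT-like cells (0.38, 0.11 to 0.66). In CNT-like cells it was at 15.7 and 6.78 CPM, from 47 and 30 UMIs. Egf was at 131 CPM (1556 UMIs) and 109.7 (1445 UMIs) in TAL-like cells (-0.26, -0.36 to -0.15) and at 39.2 and 35.2 in DCT-like cells (-0.16, -0.39 to 0.07). The TAL-like ratio differed by mitochondrial share. The 30 Cre- TAL-like cells over 20% carried 46.7% of the Egf UMIs at 1625 CPM, the 10 PHDTiEC cells 8.10% at 994 CPM. In the remaining 387 and 414 cells Egf was higher in PHDTiEC, at 72.7 and 102 CPM (0.48, 0.36 to 0.61). Its median was 0 CPM in the TAL-like cells of both libraries, with a UMI in 44.1% and 47.4% of cells, against 0.80% and 0.59% of macrophage-like cells.

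Within the distal nephron the 10 genes were laid out by subcluster. Trpm6, Trpm7 and Egf were highest in 2 DCT-like subclusters, numbered 2 and 4. Subcluster 4 had the higher Slc12a3 (3319.7 and 3164 CPM, against 1918 and 1433 in subcluster 2) and the higher Egf, at 106 and 103 CPM against 18.5 and 28.0. Trpv5 peaked in CNT-like cells and was at 86.7 and 73.4 CPM in CD-like subcluster 3, which had the highest Aqp2 (724 and 1005 CPM). S100g reached 6436 and 5892 CPM in IC-like subcluster 10, marked by Slc26a4 (pendrin), where 5 cells held 74.2% and 79.2% of it, and 1429 and 1537 CPM in IC-like subcluster 6, marked by Slc4a1. In DCT-like subcluster 4 the 3 genes that were lower in CNT-like cells were higher in PHDTiEC: Calb1 at 618 and 1337 CPM (log2 ratio 1.11), S100g at 4318 and 6791 (0.65) and Slc8a1 at 472 and 911 (0.95). There the 5 highest cells carried 77.3% and 73.9% of the Calb1 UMIs, and the median cell of both libraries had none.

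**Figure D5:**
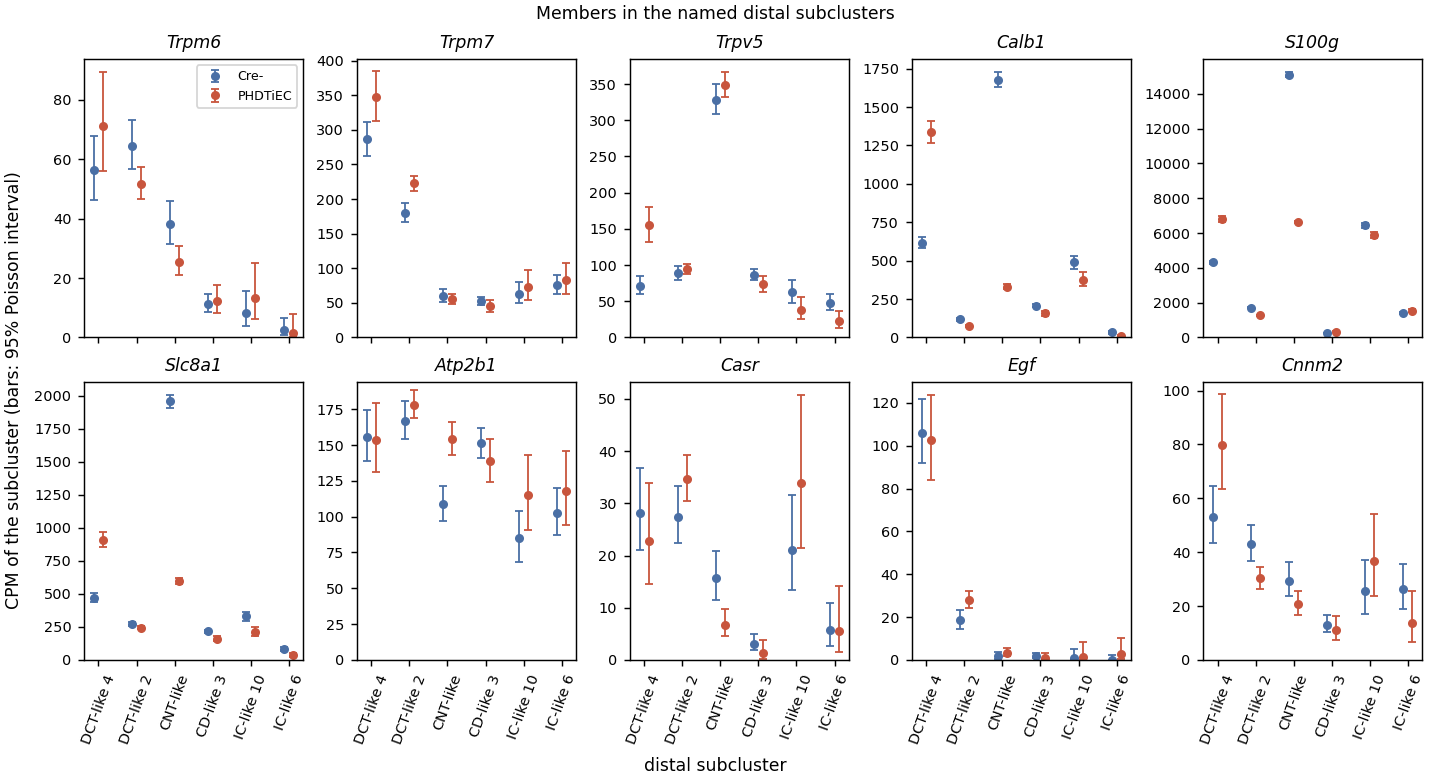
Level (CPM, with 95% Poisson interval) of each of the 10 genes in 6 named subclusters of the distal nephron cells, in the Cre- (blue) and PHDTiEC (red) libraries. Trpm7 and Egf are highest in DCT-like subcluster 4 and Trpv5 in CNT-like cells; for Calb1, S100g and Slc8a1 blue lies above red in CNT-like cells and below it in DCT-like subcluster 4.

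The DCT-like cells of each library were also ordered by their share of Slc12a3 and cut into 3 bins of near-equal cell number. From the lowest to the highest bin, Trpm7 went from 111 to 298 CPM in Cre- and from 162 to 335 in PHDTiEC, and Egf from 9.24 to 96.3 and from 11.2 to 77.7. Trpm6 had a smaller range, from 47.0 to 73.5 CPM and from 46.8 to 64.8. Calb1 was lower in PHDTiEC in every bin, at 342 and 77.6 CPM in the lowest, 164 and 118 in the middle and 959 and 515 in the highest. In the lowest and middle bins the median cell had no Calb1 UMI in either library, and 5 cells held 73.3% and 58.8% of its UMIs in the lowest and 71.7% and 84.9% in the middle. Slc8a1 was level in the middle bin, at 245 CPM in both. The bins include the CNT-like cells of the cluster. They do not match between libraries in Slc12a3, since the highest held 4523 CPM of it in Cre- and 3447 in PHDTiEC.

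The wider pathway, a list of 46 other genes of calcium and magnesium transport and its regulators, differed most in CNT-like cells. Of its 29 genes with at least 100 UMIs there, 8 were lower and 3 higher past 1.5-fold. Over all genes 8.86% were past it, 512 higher and 173 lower, with a list median of 0.04 against 0.14 for all genes. The lowest by ratio were Kl, which acts with FGF23 and on TRPV5 (970.5 and 300.3 CPM, log2 ratio -1.69, or -1.08 among cells with at most 20% mitochondrial UMIs), Vdr, the vitamin D receptor (179 and 73.0, -1.29), and Atp2b4, another calcium pump (98.7 and 44.1, -1.16). The 3 higher were Anxa2 (205 and 365 CPM, 0.83), its partner S100a10 (446 and 705, 0.66) and Egfr, the EGF receptor (19.7 and 30.5, 0.63).

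In DCT-like cells 4 of 36 list genes were higher and 2 lower, with 6.17% of all genes past 1.5-fold either way. Kl was lower over the whole cluster (228 and 121 CPM, -0.91) but not among cells with at most 20% mitochondrial UMIs (93.1 and 94.3 CPM, 0.02). Also lower was Cldn2 (14.1 and 7.46 CPM, -0.92), and the highest ratios were those of Cldn16 (6.42 and 13.7, 1.09), Cnnm4 (7.94 and 13.3, 0.75) and Fgfr1 (62.4 and 102, 0.71). In TAL-like cells 1 of 37 was higher, Sgk1 (18.3 and 30.8 CPM, 0.75), and 2 were lower (3.78% of all genes either way). Cldn14, a claudin that blocks paracellular calcium uptake and is induced through CASR, was at 17.8 and 1.37 CPM (211 and 18 UMIs, log2 ratio -3.70, -4.49 to -3.01), and 1 cell held 25.1% of the Cre- UMIs. In PT-like cells 1 of 35 was higher and 3 lower (4.4% of all genes), among them Cyp27b1, which activates vitamin D (6.62 and 3.43 CPM, -0.95). In injured PT-like cells 2 of 33 were higher and 2 lower (4.9% of all genes), and the lower ones were the vitamin D hydroxylases Cyp27b1 (19.2 and 6.52 CPM, -1.55) and Cyp24a1 (30.8 and 14.6, -1.07). CD-like cells had 3 of 33 higher and 1 lower (5.04% of all genes), thin limb-like cells 2 of 26 lower (2.45%) and IC-like cells 1 of 23 each way (5.73%). The mixed IC-like cells had 1 of 40 lower, a share below the 4.28% of all genes.

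The genes with the most similar pattern were sought over 22 cell classes, by Pearson's r of log2(CPM + 1) averaged over the libraries, among 14635 genes. CNT-like cells were not a class of their own here, only part of the distal clusters. For Trpv5 they were Scnn1b, a subunit of the epithelial sodium channel, and Hsd11b2, the enzyme that shields mineralocorticoid targets from cortisol-like hormones (both 0.96). For Calb1 they were Atp12a (0.93) and Pgam2 (0.92), and Pgam2 (0.83) also led for Slc8a1. S100g was closest to Defb1 (0.95), Egf to Defb42 (0.96), Casr to Sfta2 (0.94), Trpm6 to Lor and Cdh3 (both 0.93), and Cnnm2 to Oxnad1 (0.92). The highest r was lower for Trpm7 (0.78, Lhx1os). The classes share libraries and free RNA, so these values are descriptions.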

How the data were processed

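Single-cell 3′ RNA-seq of mouse kidney, with 2 libraries (1 mouse per genotype), was used. The authors deposited unfiltered UMI counts per gene and barcode, made, per the submitters' processing notes, with Cell Ranger (version not given in the sources used here) on mm10; no value was normalized. Library totals were 136004367 (Cre-) and 146758812 UMIs (PHDTiEC). Barcodes with 500 to 100000 UMIs, at least 200 genes and at most 50% mitochondrial UMIs were kept and clustered together with Seurat 5.3.0 (R 4.3.3; 2000 variable genes, 20 principal components, resolution 0.8), leaving out the 10 members and the 46 pathway genes. This gave 30 clusters, named by hand from marker lists; 1632 and 1586 cells stayed unnamed. Distal clusters were clustered again in the same way. UMIs were summed per class and library as CPM, with exact 95% Poisson intervals for levels and exact binomial intervals for shares and ratios. Intervals cover counting error only. With 1 library per genotype no test was run and no replicate spread is known.

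Scrublet marked 0 of 8548 and 0 of 9309 cells, so it had not worked, doublets were left in and that alternative was not run. On counts simulated from the DCT-like totals the ratio script was tested before use. Members, gene lists and the rule for named genes (all members with at least 100 UMIs in a segment, floxed genes, the 3 highest and 3 lowest pathway genes past 1.5-fold per segment, and, of the 3 genes most alike each member, the leading ones, with some not reported here) were chosen with earlier results of these data known. The comparisons without CNT-like cells and without the 5 cells with most UMIs were added after seeing the data. Promoter windows came from RefSeq (9 of 10 members had one) and coordinates from GENCODE vM21 on GRCm38. S100g, Slc8a1 and Egf overlap genes on the other strand. Python 3.11.15, scipy 1.17.1 and edgeR 4.0.16 (TMM scaling, as an alternative) were used.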

Additional observations from a re-analysis of the deposited data

Results flagged for a closer look

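The log2 ratio of 3 genes pointed in opposite directions in different groups of distal nephron cells. In no case was the difference between the cell groups tested, since each genotype has 1 library. Among the named subclusters, Calb1 was higher in the PHDTiEC library in DCT-like subcluster 4 (1.11) and lower in DCT-like subcluster 2 (-0.72) and in CNT-like cells (-2.35). S100g was higher in subcluster 4 (0.65) and lower in CNT-like cells (-1.19). Slc8a1 was higher in subcluster 4 (0.95) and lower in CNT-like cells (-1.71), in IC-like subcluster 6 (-1.14) and in IC-like subcluster 10 (-0.62). In subcluster 4, 5 cells of each library held 77.3% and 73.9% of the Calb1 UMIs, 56.2% and 77.0% of the S100g UMIs and 60.9% and 63.0% of the Slc8a1 UMIs. Unnamed subclusters were left out of this list. In unnamed subcluster 1 (74 and 209 cells) Calb1 was also higher in PHDTiEC, at 115 and 173 CPM (0.59). There 5 cells of each library held 21.2% and 9.97% of its UMIs. The other unnamed subclusters are not given here.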

How the results depend on the processing

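In CNT-like cells Calb1, S100g and Slc8a1 stayed lower and past 1.5-fold under all 11 alternatives that gave a value, from main log2 ratios of -2.35, -1.19 and -1.71. They were -1.63, -0.73 and -1.15 with at most 20% mitochondrial UMIs, -2.25, -1.03 and -1.31 under the marker gate, -2.07, -0.97 and -1.45 as means over cells, -2.46, -1.30 and -1.82 with TMM, and -2.44, -1.28 and -1.80 without mitochondrial genes, Gm42418, Gm26917 and Malat1. Without the 5 cells with most UMIs S100g was -1.15 and Slc8a1 -1.54. The other clusterings (resolution 0.4 or 1.2, 30 principal components, members kept in) gave no value here, as none of their clusters was mostly CNT-like. They were clusterings of all cells, and at that level the main settings gave no CNT cluster either. The second clustering, which gave the CNT-like group, was run with the main settings only. Whether another clustering of the distal cells recovers the group was thus not tested. In DCT-like cells, from -1.03, -1.18 and -0.71, they were -0.37, -0.59 and -0.11 with at most 20% mitochondrial UMIs, -0.19, -0.53 and -0.070 without the CNT-like cells, -0.73, -0.90 and -0.60 under the marker gate, -1.16, -0.69 and -0.87 with 30 principal components, -1.13, -1.27 and -0.80 with TMM, -0.91, -1.10 and -0.51 with the members kept in the clustering, and -1.39, -1.36 and -0.60 without the 5 cells with most UMIs. As means over cells Calb1 was -1.29 and S100g -1.47, and at resolution 0.4 S100g was -0.46 and Slc8a1 -0.63. S100g was also -1.23 without mitochondrial genes, -1.14 with the knee filter (only barcodes holding 10% or more of the count of the barcode at rank 100), -1.26 with complexity of at least 0.8 and -1.27 without the 1 cell with most UMIs. The cause of these shifts was not tested.

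Signs turned for Calb1 in TAL-like cells under the marker gate (0.50) and without the 1 cell with most UMIs (0.18), and for Slc8a1 in IC-like cells with 30 principal components (-0.17), the marker gate (-0.66) and resolution 1.2 (-0.044). With TMM, the knee filter or mitochondrial genes left out, 5 members instead of 3 were past 1.5-fold in CNT-like cells, the added ones being Trpm6 and Cnnm2, both lower; the share of all genes was not computed there. With 1 library per genotype, the spread between mice is unknown and genotype, mouse, dissociation and library cannot be told apart. No paired analysis was possible because each group has 1 library.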

Other observations

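Members were also counted outside the nephron clusters. In an unnamed cluster of 597 Cre- and 573 PHDTiEC cells with a median of 1270 and 1082 UMIs, S100g was at 4388 and 888 CPM, Calb1 at 515 and 93.2 and Slc8a1 at 202 and 39.4. In endothelial-like cells S100g was at 395 and 68.6 CPM, with 5 cells holding 87.7% and 57.3% of it. Among the 21 podocyte-like cells of Cre-, 1 barcode held 99.8% of the 1243 S100g UMIs.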
